A study of Mus musculus with 13 samples.

Results

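RNA of 10 genes of the core cell cycle machinery was followed in 3 ovaries of wild-type (WT) mice and 10 MP ovarian tumors. They were taken by gene symbol from a table of 53465 mouse genes: the D-type cyclins Ccnd1, Ccnd2 and Ccnd3, the E-type cyclins Ccne1 and Ccne2, Ccna2 (cyclin A2), Ccnb1 (cyclin B1), and the cyclin-dependent kinases (CDKs) Cdk1, Cdk4 and Cdk6. All 10 were found and all 10 passed the filter on low values described below. WT samples were ovaries of untreated C57BL/6 mice with a listed age of 8 to 12 wk. MP tumors carry the labelled genotype Myc;p53-/- EPO-GEMM: an ovary of a WT C57BL/6 female aged 8 to 12 wk was electroporated in the living animal with plasmids coding for Cas9 and a guide RNA against Trp53 and with a Sleeping Beauty transposon overexpressing MYC, and whole tumor tissue was taken at end point. These animals received no further treatment. Electroporation does not select a cell type, and each library holds the RNA of a whole tissue piece, so that a smaller number of cells of a type and less RNA in each of them cannot be told apart.

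A cyclin is the regulatory subunit that a CDK needs to become an active kinase, and most cyclins come and go with the phases of the cell cycle. In G1, D-type cyclins activate Cdk4 and Cdk6, which start to phosphorylate the retinoblastoma protein Rb1 and so release the E2F transcription factors. E2F drives the E-type cyclins, which bind Cdk2 and carry the cell into S phase, cyclin A2 acts through S phase and G2, and cyclin B1 with Cdk1 drives entry into mitosis. In the ovary, cyclin D2 is the D-type cyclin of granulosa cells, the dividing somatic cells of the follicle, where follicle-stimulating hormone induces it. Female mice without Ccnd2 are infertile because their granulosa cells proliferate too little.

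Levels are given in TPM, a share of each library's RNA corrected for gene length. Values came in steps of whole reads, which put the depth at 31445004 to 64013840 reads in the WT ovaries and 3892690 to 19906507 reads in the MP tumors. The lowest read number behind a value of the 10 genes was 25, for Ccnd3 in MP tumor 2. The library names in the labels carry a code that divides the libraries into 3 sets, here called set A (the 3 WT ovaries and MP tumors 1 to 3), set B (MP tumors 4 to 6) and set C (MP tumors 7 to 10). What the code stands for is not given, and set and condition can be separated only within set A. Trp53, the targeted gene, was at 80.7 to 85.4 TPM in the WT ovaries, at 4.30 to 26.0 TPM in MP tumors 1 to 9 and at 187 TPM in the library labelled MP tumor 10. In MP tumor 2, 10 genes took 55.1% of the total TPM, against at most 20.6% in any other library. All values of the 10 genes are therefore also given without MP tumors 2 and 10 where that changes a call.

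Promoter sequences were matched by symbol in RefSeq (build GRCm38.p6), with entries for 6 of the 10 genes. They are shown for Cdk4, Cdk1, Ccnb1 and Ccne1, since Cdk1, Ccnb1 and Ccne1 rose together in the tumors and Cdk4 is the most abundant of the 10 genes. Capitals mark matches to 4 short motifs searched on both strands: the CCAAT box, the cell cycle homology region TTTGAA, the E2F motif TTTNGCGC and the E-box CACGTG to which MYC can bind. Positions count from -1 at the base before the RefSeq start and give the leftmost base of a match. The Ccnb1 and Ccne1 sequences and their coordinates are cut to end 54 and 14 bases short of that start, while the motifs were searched in the whole window. The Cdk4 window (chr10:127063285-127063534, plus strand) held 4 E-boxes, at -172, -118, -98 and -11, the Cdk1 window (chr10:69352913-69353162, minus strand) held 3 CCAAT boxes on the reverse strand at -208, -80 and -48, TTTGAA at -71 and -15 and the E2F motif at -131, the Ccnb1 window (chr13:100786541-100786736, minus strand) held CCAAT at -99 and -67, and these letters were not found in the Ccne1 window (chr7:38107505-38107740, minus strand).
Cdk4 promoter: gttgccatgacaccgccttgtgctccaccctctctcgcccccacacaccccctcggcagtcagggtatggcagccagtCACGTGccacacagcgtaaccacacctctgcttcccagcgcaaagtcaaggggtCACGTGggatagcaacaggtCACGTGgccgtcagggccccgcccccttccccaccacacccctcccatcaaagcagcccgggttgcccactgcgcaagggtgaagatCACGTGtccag
Cdk1 promoter: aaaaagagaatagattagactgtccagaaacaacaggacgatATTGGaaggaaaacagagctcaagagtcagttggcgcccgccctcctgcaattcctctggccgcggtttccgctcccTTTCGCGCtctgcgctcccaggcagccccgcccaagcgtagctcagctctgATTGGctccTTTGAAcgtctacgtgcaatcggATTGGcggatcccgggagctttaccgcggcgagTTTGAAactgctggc
Ccnb1 promoter: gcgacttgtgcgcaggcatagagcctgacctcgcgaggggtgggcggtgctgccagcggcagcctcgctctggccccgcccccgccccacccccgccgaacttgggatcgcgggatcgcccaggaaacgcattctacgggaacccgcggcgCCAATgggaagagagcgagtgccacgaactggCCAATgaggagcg
Ccne1 promoter: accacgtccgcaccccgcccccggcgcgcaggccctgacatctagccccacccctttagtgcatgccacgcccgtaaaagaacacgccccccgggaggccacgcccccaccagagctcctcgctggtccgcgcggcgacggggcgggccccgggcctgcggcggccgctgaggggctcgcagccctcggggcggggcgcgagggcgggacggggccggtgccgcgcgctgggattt
No 2 matches overlapped. Over 32851 RefSeq promoter windows of 300 bases, CCAAT was found in 37.4%, TTTGAA in 17.9%, CACGTG in 7.15% and TTTNGCGC in 1.38%. A match describes the letters of a window and is not evidence that a factor binds there.

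The cyclins of S phase and mitosis, and the mitotic kinase Cdk1, were higher in MP tumors than in WT ovaries, while none of the D-type cyclins and their kinases passed the test. Ccne1, Ccne2, Ccna2, Ccnb1 and Cdk1 rose past an adjusted p of 0.05, and 0 of the 10 genes fell. The remaining 5 were Ccnd1, Ccnd2, Ccnd3, Cdk4 and Cdk6, the D-type cyclins and their kinases. The rises spanned 2.79-fold (Ccna2) to 5.26-fold (Ccne1) on the log2(TPM + 1) scale, tested with limma and Benjamini-Hochberg adjustment across the 17277 genes that reached 1 TPM in 3 or more libraries. Among all genes tested, 2.51% were called higher and 14.3% lower. The median log2 difference was 1.15 over the 10 genes and -0.58 over all genes tested, so that a gene at 0 on this scale stood above the typical gene. TPM sums to a fixed total, and a median-of-ratios scaling, which sets the typical gene of each library level, was therefore run beside it. With it Ccne1, Ccna2, Ccnb1, Cdk1 and Cdk4 were called higher and 0 lower (7.37% of all genes higher, 11.0% lower), and Ccne2 missed the threshold (adjusted p = 0.0551). Leaving out a WT ovary ended most calls: 0 of 10 were called without WT ovary 1, only Cdk1 without WT ovary 2, and 0 without WT ovary 3, when 135, 153 and 94 genes of the whole table were still called higher.

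**Figure D1:**
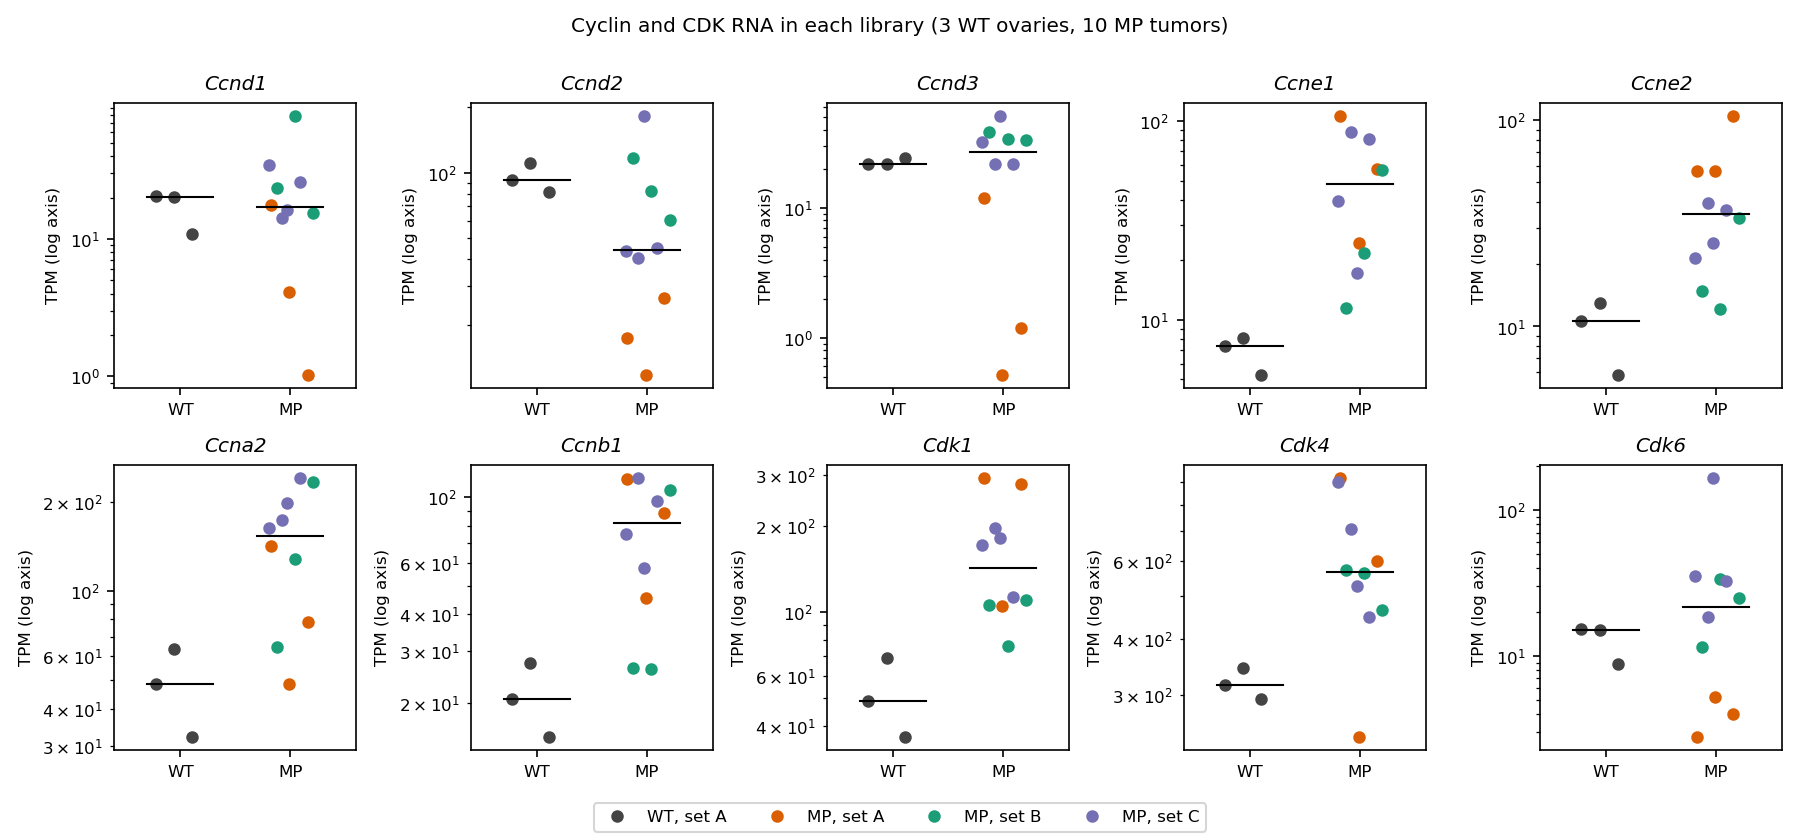
TPM of each of the 10 genes (log axis) in 3 WT ovaries and 10 MP tumors. Points are libraries, colored by library set, and bars are group medians. Every MP tumor stands above every WT ovary for Ccne1 and Cdk1, while the orange points (MP tumors of set A) lie at the bottom for Ccnd2, Ccnd3 and Cdk6.

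**Figure D2:**
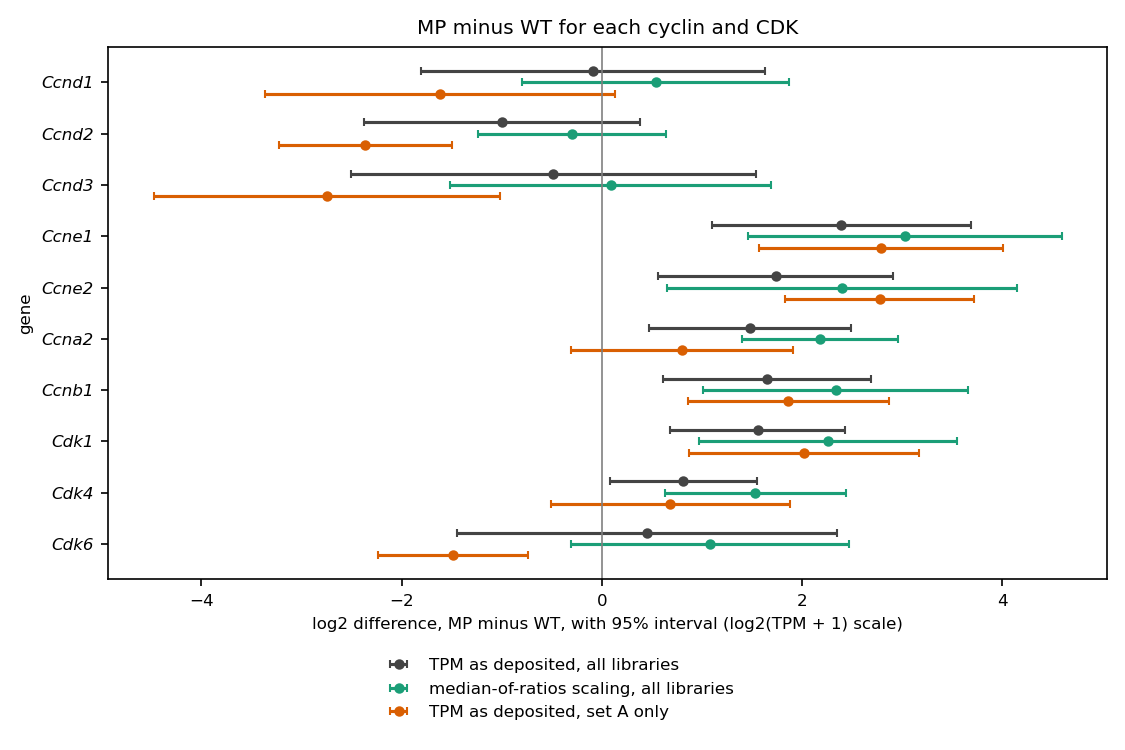
Log2 difference of each gene, MP tumors minus WT ovaries, with its 95% interval from limma. The 3 colors are TPM as deposited, median-of-ratios scaling and the 6 libraries of set A. Intervals of Ccne1, Ccne2, Ccnb1 and Cdk1 lie above 0 in all 3 fits, while those of Ccnd2 and Ccnd3 lie below 0 in set A, and the other intervals of the D-type cyclins cross 0.

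In this fit Ccne1 (ENSMUSG00000002068, chromosome 7 from 38097984 to 38107534, minus strand, GRCm38), an E-type cyclin that activates Cdk2, showed the largest rise of the 10 genes. It was at 7.36, 8.11 and 5.24 TPM in the WT ovaries. The MP tumors ranged from 11.4 TPM (MP tumor 4) to 106 TPM (MP tumor 1), with a median of 47.9 TPM. No MP tumor overlapped the WT range, a pattern shared by Cdk1 and by 3.02% of all genes tested. The reverse, every tumor below every ovary, was seen in 0 of the 10 genes and in 16.4% of all genes. Mean levels of 6.91 ± 1.49 (SD, n = 3) and 50.2 ± 32.9 TPM (SD, n = 10) gave a log2 difference of 2.39 (SE 0.61, 95% interval 1.10 to 3.69, limma adjusted p = 0.0144). A 2-sided exact permutation test, which has 286 arrangements of the libraries, gave an adjusted p of 0.0294 for Ccne1, from the smallest p it can give (0.0035). Without WT ovary 1, 2 or 3 the limma adjusted p became 0.0631, 0.0543 or 0.0877, at log2 differences of 2.44, 2.51 and 2.23. Among MP tumors the level spanned 9.28-fold, or 6.17-fold without MP tumor 4.

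Ccne2 (ENSMUSG00000028212, chromosome 4 from 11191351 to 11204779), the other E-type cyclin, was at 10.6, 12.95 and 5.80 TPM in WT ovaries and between 12.2 and 105 TPM in MP tumors (median 35.2 TPM). In 9 of 10 tumors it was above every WT ovary, and MP tumor 5 lay within the WT range. Its log2 difference was 1.74 (SE 0.55, 95% interval 0.56 to 2.91, limma adjusted p = 0.0427). The call was close to the threshold: it was lost without any WT ovary (adjusted p 0.0935 to 0.209) and without MP tumor 1, 2, 6, 7 or 8 (adjusted p 0.0515 to 0.0651). Exons of Ccne2 share 17.4% of their bases with Ints8 on the opposite strand, and whether counting used strand is not given. Summed over both genes, E-type cyclin RNA was at 11.04 to 21.1 TPM in WT ovaries and 26.3 to 163 TPM in MP tumors, without overlap. The proportion of the 2 genes differed among tumors. Ccne1 made up 38.5% to 47.5% of the sum in WT ovaries and 30.0% to 69.1% in MP tumors (median 63.3%), with Ccne2 ahead in MP tumors 2, 3, 4 and 10 as in the WT ovaries.

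Cdk1 (ENSMUSG00000019942, chromosome 10 from 69335146 to 69352938, minus strand), the kinase of mitotic entry, was at 48.9, 69.2 and 36.6 TPM in WT ovaries. In MP tumors of set A it was at 293, 105 and 279 TPM, in those of set B at 105, 76.1 and 109.6 TPM, and in those of set C at 196, 113, 172 and 182 TPM. All 10 tumors stood above the 3 ovaries. The log2 difference was 1.56 (SE 0.41, 95% interval 0.68 to 2.43, limma adjusted p = 0.0177), a fold of 2.94, and the exact permutation test gave an adjusted p of 0.0294. Leaving out WT ovary 1 or 3 ended the limma call (adjusted p 0.0842 and 0.122), and leaving out any of the other libraries did not. Among the 10 genes, Cdk1 thus kept its call in 26 of 28 alternative settings, Ccne1 in 25, Ccnb1 in 23, Ccne2 in 15 and Ccna2 in 13.

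Ccnb1 (ENSMUSG00000041431, chromosome 13 from 100778650 to 100786570, minus strand), the partner of Cdk1 in mitosis, was at 20.6, 27.4 and 15.3 TPM in WT ovaries and 26.1 to 116 TPM in MP tumors (median 81.8 TPM). MP tumors 4 and 5, both of set B, fell within the WT range with 26.2 and 26.1 TPM, and the other 8 lay above it. The log2 difference was 1.65 (SE 0.49, 95% interval 0.61 to 2.68, limma adjusted p = 0.0313). Without WT ovary 1, 2 or 3 the adjusted p was 0.119, 0.0736 or 0.164, and without MP tumor 8 it was 0.0507. The ratio of Cdk1 to Ccnb1 TPM was 2.38 to 2.53 in WT ovaries and 1.04 to 4.02 in MP tumors, so that the pair kept no fixed proportion in the tumors.

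Ccna2 (ENSMUSG00000027715, chromosome 3 from 36564865 to 36572150, minus strand), the cyclin of S phase and G2, was at 48.3, 63.6 and 31.97 TPM in WT ovaries. It ranged from 48.3 TPM (MP tumor 2) to 240.5 TPM (MP tumor 8) in MP tumors, with a median of 153 TPM. MP tumor 2 lay within the WT range and the other 9 tumors above it. The log2 difference was 1.48 (SE 0.47, 95% interval 0.47 to 2.49, limma adjusted p = 0.0446), and the call was lost in 15 of 28 settings, among them each fit without a WT ovary (adjusted p 0.087 to 0.214), those without MP tumor 1, 6, 7, 8 or 10 (adjusted p 0.0529 to 0.0673) and the libraries of set A (log2 difference 0.80, adjusted p = 0.174). Exons shared with Exosc9 on the opposite strand make up 12.5% of Ccna2. After median-of-ratios scaling, Ccna2 had the smallest adjusted p of the 10 genes (log2 difference 2.18, SE 0.36, adjusted p = 0.000904).

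Of the kinases that D-type cyclins activate, Cdk4 was the most abundant of the 10 genes and Cdk6 among the least. Cdk4 (ENSMUSG00000006728, chromosome 10 from 127063534 to 127067920) was at 316, 345 and 293 TPM in WT ovaries and between 241 and 920 TPM in MP tumors (median 567 TPM). In 9 tumors it was above every WT ovary and in MP tumor 2 below all 3. Its log2 difference of 0.82 (SE 0.34, 95% interval 0.08 to 1.55) did not pass the threshold (limma adjusted p = 0.112). It passed without MP tumor 2 (0.95, adjusted p = 0.0208) and after median-of-ratios scaling (1.53, SE 0.42, adjusted p = 0.0212), when all 10 tumors, from 359 to 1435 scaled TPM, lay above the WT ovaries at 202 to 232. The same was true of Ccne1, Ccne2, Ccna2, Ccnb1 and Cdk1 on the scaled values, a pattern found in 9.45% of all genes tested, while 0 of the 10 genes and 10.7% of all genes had every tumor below. Exons shared with Tspan31 on the opposite strand make up 19.7% of Cdk4.

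Cdk6 (ENSMUSG00000040274, chromosome 5 from 3341485 to 3531008) was at 15.2, 15.1 and 8.74 TPM in WT ovaries. In MP tumors of set A it was at 2.75, 5.18 and 4.004 TPM, in those of set B at 11.5, 34.0 and 24.8 TPM, and in those of set C at 18.5, 32.7, 35.5 and 167 TPM. Thus 3 tumors lay below all WT ovaries, 6 above, and the tumors spanned 60.5-fold, or 12.9-fold without MP tumor 10. The log2 difference was 0.45 (SE 0.89, 95% interval -1.45 to 2.35, limma adjusted p = 0.736), an interval that holds both a fall and a rise of more than 2-fold. The value of MP tumor 10, 167 TPM, raised the share of Cdk6 in the sum of both kinases to 24.1%, against 2.89% to 4.61% in WT ovaries and 0.298% to 6.79% in the other tumors. Without MP tumor 10 the log2 difference was 0.10 (adjusted p = 0.928). The sign turned with the library set, to -1.49 within set A (adjusted p = 0.00452), with the set as a covariate (adjusted p = 0.0651) and with the replicate block (adjusted p = 0.00552). These fits give the same estimate from the libraries of set A, because every WT ovary is in that set, and are not separate evidence. Within set A 57.3% of all genes were called lower.

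Ccnd2 (ENSMUSG00000000184, chromosome 6 from 127125162 to 127152193, minus strand) was the leading D-type cyclin of the WT ovary. It was at 92.6, 111 and 81.5 TPM there. In MP tumors of set A it was at 17.3, 11.7 and 26.5 TPM, in those of set B at 117, 82.2 and 60.8 TPM, and in those of set C at 40.4, 44.9, 43.7 and 183 TPM. Of the tumors, 7 lay below all WT ovaries, MP tumors 4 and 10 above, and MP tumor 5 within the WT range. The log2 difference was -1.0 (SE 0.65, 95% interval -2.38 to 0.38, limma adjusted p = 0.285), and -0.30 after median-of-ratios scaling (SE 0.44, 95% interval -1.23 to 0.64, adjusted p = 0.655). The library set changed this call: Ccnd2 was lower at -2.36 within set A (adjusted p = 0.000954), with the set as a covariate (adjusted p = 0.00184) and with the replicate block (adjusted p = 0.000919). As for Cdk6, these fits share the same estimate from set A, where 57.3% of all genes were called lower. The difference was negative in all 28 alternative settings but passed in only 3, the fits that share that estimate. It was -0.02 with the length trend removed (limma adjusted p = 0.976). The settings refit the same libraries, and only 30.1% of all genes tested had a positive difference in the main fit.

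Markers of granulosa cells were read beside Ccnd2. Of 12 listed, 11 fell, beside 14.3% of all genes, with a median log2 difference of -5.31. Their summed TPM was 4513 to 8710 in WT ovaries and 20.6 to 1569 in MP tumors (median 467). For Inha, a subunit of the hormone inhibin, means of 3775 ± 1328 (SD, n = 3) and 421 ± 523 TPM (SD, n = 10) gave a log2 difference of -4.94 (SE 1.45, limma adjusted p = 0.0307), while Hsd17b1, an estradiol-forming enzyme, had a log2 difference of -3.16 (adjusted p = 0.0609). The defining markers Fshr, the receptor of follicle-stimulating hormone, and Cyp19a1, the aromatase, were listed at 0 in 9 of 10 tumors each. The 2 tumors with the most Ccnd2 had granulosa sums of 1569 TPM (MP tumor 4) and 1021 TPM (MP tumor 10), and the tumor with the least, MP tumor 2, had the lowest sum. Inha alone supplied 1430 and 933 TPM of the sums in MP tumors 4 and 10. Foxl2, another listed marker, was at 76.0 TPM in MP tumor 4 and 6.91 TPM in MP tumor 10, around a tumor median of 15.7 TPM. The order did not hold throughout: MP tumor 6 had a sum of 1141 TPM with Ccnd2 below every ovary, and MP tumor 8 had more Ccnd2 than MP tumor 7 at a sum of 76.1 against 637 TPM. Lists of other ovarian cells fell too, with 8 of 9 tested luteal and theca markers and 12 of 12 oocyte markers lower, beside the same 14.3%. The part of cell composition in the level of Ccnd2 was not tested.

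Ccnd1 (ENSMUSG00000070348, chromosome 7 from 144929931 to 144939925, minus strand), the D-type cyclin that most growth signals induce, was at 20.7, 20.3 and 10.9 TPM in WT ovaries and 1.02 to 78.9 TPM in MP tumors (median 17 TPM). Of the tumors, 4 lay above all WT ovaries, 2 below and 4 among them, and the tumors spanned 77.6-fold, or 19.1-fold without MP tumor 3. Its log2 difference was -0.09 (SE 0.81, 95% interval -1.81 to 1.63, limma adjusted p = 0.947), with a sign that turned under several alternatives. It was -1.61 within set A (adjusted p = 0.0941), with the set as a covariate (adjusted p = 0.0754) and with the replicate block, where it was called lower (adjusted p = 0.011). Here too the fits share the same estimate from set A, where 57.3% of all genes were called lower. Exons of Ccnd1 share 23.4% of their bases with LTO1 on the opposite strand, a gene at no more than 11.2 TPM in any library.

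Ccnd3 (ENSMUSG00000034165, chromosome 17 from 47505051 to 47599691) was steady in WT ovaries, at 21.7, 21.8 and 24.1 TPM. It was at 12.0, 0.513 and 1.18 TPM in MP tumors of set A, at 38.3, 33.8 and 33.5 TPM in those of set B, and at 21.8, 21.6, 32.2 and 51.3 TPM in those of set C. The tumors spanned 100-fold. This span rests on MP tumor 2, with 25 reads, and was 43.4-fold without it. With all 10 tumors the spread of log2(TPM + 1) among them exceeded that of 94.5% of all genes tested. The log2 difference from WT ovaries was -0.48 (SE 0.95, 95% interval -2.50 to 1.54, limma adjusted p = 0.735). The library set changed this call too: Ccnd3 was lower at -2.75 within set A (adjusted p = 0.0128), with the covariate (adjusted p = 0.00216) and with the replicate block (adjusted p = 0.00737). Again the fits share the same estimate from set A, where 57.3% of all genes were called lower.

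The make-up of the D-type family varied more among tumors than among ovaries. Ccnd2 was 68.6% to 72.5% of the summed D-type TPM in WT ovaries and 36.8% to 92.3% in MP tumors (median 54.1%). Ccnd1 was 9.38% to 15.3% in WT ovaries and 3.55% to 40.5% in MP tumors. The sum itself was 116 to 153 TPM in WT ovaries and 16.3 to 251 TPM in MP tumors, with a median of 101 TPM. These ranges overlap and were not tested.

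**Figure D3:**
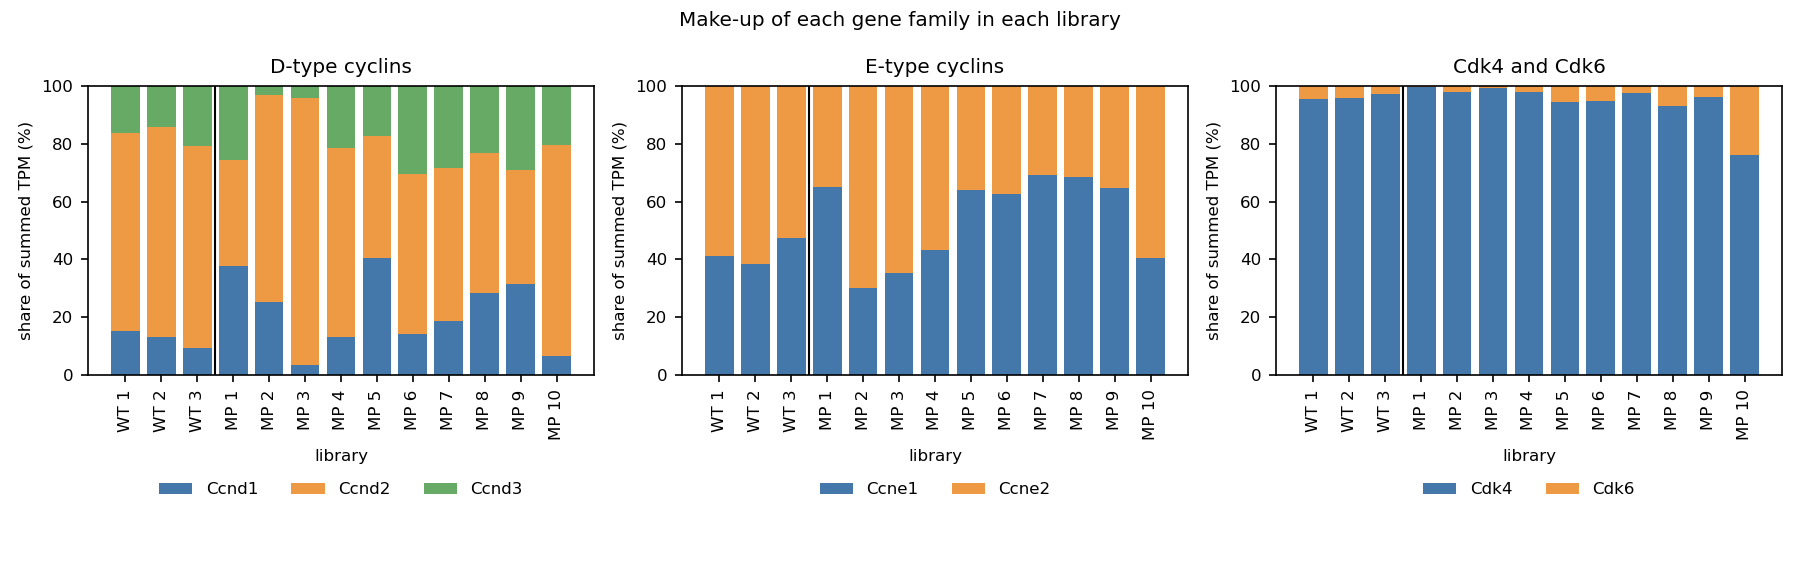
Share of summed TPM (percent) taken by each gene of a family in each library, for the D-type cyclins, the E-type cyclins and the pair Cdk4 and Cdk6. A line separates 3 WT ovaries from 10 MP tumors. Ccnd2 takes 68.6% to 72.5% in the ovaries and 36.8% to 92.3% in the tumors, and Cdk6 reaches 24.1% in MP tumor 10.

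Part of the spread of these genes went with the library set. Within MP tumors, those of set A had less Ccnd1, Ccnd2, Ccnd3 and Cdk6 than the other 7 tumors and more Ccne2. The log2 differences were -2.18 (SE 0.64, limma adjusted p = 0.0206) for Ccnd1, -1.95 (SE 0.48, adjusted p = 0.00817) for Ccnd2, -3.23 (SE 0.56, adjusted p = 0.00126) for Ccnd3, -2.77 (SE 0.61, adjusted p = 0.00463) for Cdk6 and 1.48 (SE 0.41, adjusted p = 0.0157) for Ccne2. Among all genes, 30.1% were lower in set A and 1.29% higher, so that 4 of 10 lower was near the rate of the whole table. Markers of some other cells moved with this contrast: summed endothelial markers were at 7.23 to 22.3 TPM in MP tumors 1 to 3 and 29.8 to 267 TPM in the others, and summed stromal and smooth muscle markers at 130 to 296 and 320 to 4883 TPM. Sums of the other marker lists overlapped between set A and the rest. Immune sums were at 1452 to 3673 TPM against 491 to 2005 TPM, and epithelial sums at 10.0 to 274 TPM against 9.80 to 1238 TPM. The part of these cells in the differences was not tested. After median-of-ratios scaling Ccnd3 was the only one of the 10 genes still called lower (-2.32, adjusted p = 0.00983), while Ccne2, Ccnb1, Cdk1 and Cdk4 were called higher (14.0% of all genes higher, 9.71% lower). Without MP tumor 3, 3 of the 10 genes differed, Ccnd2, Ccnd3 and Cdk6, and without MP tumor 2 also 3, Ccne2, Ccnd3 and Cdk6. Of the 17277 genes tested, 46 were higher and 3509 lower in set A without MP tumor 3, and 343 and 2830 without MP tumor 2.

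Within set A, where 3 MP tumors face the 3 WT ovaries, genes of both directions passed the test. Ccne1, Ccne2, Ccnb1 and Cdk1 were called higher (log2 differences 2.79, 2.77, 1.86 and 2.02), and Ccnd2, Ccnd3 and Cdk6 lower (-2.36, -2.75 and -1.49). Of all genes 6.44% were called higher and 57.3% lower in this fit. With median-of-ratios scaling in the same 6 libraries, Ccne1, Ccne2, Ccna2, Ccnb1, Cdk1 and Cdk4 were called higher and 0 lower (27.1% and 31.6% of all genes), so the falls of Ccnd2, Ccnd3 and Cdk6 did not pass on that scale, at -0.75 for Ccnd2 (adjusted p = 0.0506), -1.54 for Ccnd3 (adjusted p = 0.123) and -0.030 for Cdk6 (adjusted p = 0.960). Cdk6, Ccnd2 and Ccnd3 have the longest merged exons of the 10 genes, with 13989, 9409 and 8775 bases against a median of 3516 bases over all genes tested. The log2 difference of genes was correlated with log2 length across the 17277 genes (Pearson r = -0.27, and -0.39 within set A), which are not independent replicates. With each library's trend on length removed, Ccnd2 had a log2 difference of -0.02 (adjusted p = 0.976), Cdk6 one of 1.55 (adjusted p = 0.0463) and Ccnd3 one of 0.47 (adjusted p = 0.624) over all libraries. With the same correction, the MP tumors of set A still had less Ccnd3 than the other MP tumors (-1.79, adjusted p = 0.033), while Ccnd2 (-0.48, adjusted p = 0.534), Cdk6 (-1.22, adjusted p = 0.096) and Ccnd1 (-1.02, adjusted p = 0.260) did not pass.

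**Figure D4:**
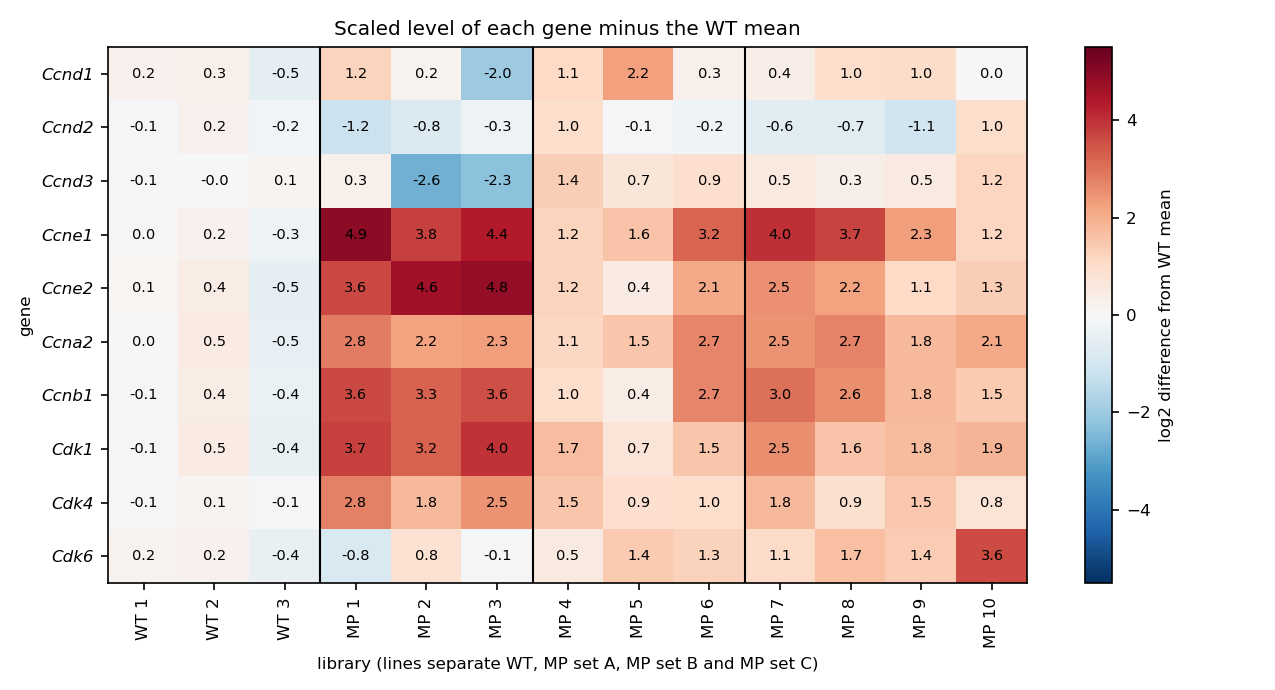
Log2 of median-of-ratios scaled TPM + 1 for each gene and library, minus the mean of the 3 WT ovaries. Lines separate WT ovaries and the 3 sets of MP tumors. Ccne1, Ccne2, Ccna2, Ccnb1, Cdk1 and Cdk4 are above the WT mean in all 10 tumors, while Ccnd3 is far below it in MP tumors 2 and 3, and Cdk6 is highest in MP tumor 10.

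Correlations across the 10 tumors are given as a description on median-of-ratios scaled log2 values that share depth, scaling and library set. Pearson r was 0.94 between Ccne1 and Ccnb1, 0.91 between Ccne2 and Cdk1, 0.89 between Cdk1 and Cdk4 and 0.89 between Ccne2 and Ccnb1, the highest of the pairs. For Ccna2, r was 0.79 with Ccne1, 0.79 with Ccnb1, 0.53 with Ccne2 and 0.42 with Cdk1, and 0.23 with Cdk4. The lowest values were r of -0.85 between Ccnd3 and Ccne2 and between Cdk6 and Cdk4. Among 8828 genes with a mean of at least 10 TPM in the tumors, the 3 most like Cdk1 were Snrpd3, Rwdd1 and Tfam (r = 0.99, 0.99 and 0.98), those most like Ccne1 were Ninj1, Zc3h8 and Them6, and those most like Ccnb1 were Nop16, Mrpl36 and Wdr43. For Ccne2 they were Mrpl50, Ndufab1 and Tra2b, for Ccna2 Hars, Znhit6 and Hnrnpa2b1, and for Cdk4 Arl6ip1, Ufc1 and Zfp141. Ccnd1 was most like Slain1, Itga6 and Stim1, Ccnd2 like Doc2b, Oit3 and Endov, Ccnd3 like Zfp395, Atp6v0c and Ppp1r21, and Cdk6 like Htt, Vars2 and Otud4.

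The partners of these genes were read from lists of the cell cycle. CDK inhibitors, which block cyclin and CDK complexes, moved in both directions. Cdkn2a, which codes for p16INK4a and p19ARF, rose, with means of 3.38 ± 0.713 (SD, n = 3) and 473 ± 262 TPM (SD, n = 10) and a log2 difference of 6.55 (SE 0.50, limma adjusted p = 2.71e-07), higher in 10 of 10 tumors. Of the 7 inhibitors 1 rose and 3 fell, beside 2.51% of all genes higher and 14.3% lower: Cdkn2b, the p15 inhibitor of Cdk4 and Cdk6, from 132 ± 75.7 to 7.28 ± 5.83 TPM (SD, n = 3 and 10; log2 difference -4.20, SE 0.65), Cdkn1b (p27), which binds Cdk2 complexes, from 235 ± 34.8 to 70.7 ± 27.9 TPM (-1.81, SE 0.37), and Cdkn1a (p21), a target of p53, by 2.62 on the log2 scale (adjusted p = 0.0327; named after its value was seen). After scaling only Cdkn2b among the 7 was still called lower, beside 11.0% of all genes.

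Few other cyclins and CDKs passed the test. Of 17 other cyclins tested, Ccnb2, the second B-type cyclin, rose (log2 difference 1.26, SE 0.32, limma adjusted p = 0.0139), and 2 fell, near the 14.3% of all genes called lower: Ccng1, a p53 target (-1.69, SE 0.36), and Ccno, a cyclin of multiciliated cells (-3.45, SE 0.37). Of 20 other CDKs and CDK-like kinases, 0 rose and 3 fell, again near that 14.3%: Cdk15, Cdkl2 and Cdk18, the last named after its value was seen (log2 difference -2.25), at a median of -0.73 over the list. Cdkl2 lost its call in 8 of 28 alternative settings, Ccnb2 in 4, and Cdk15 in 4 of those that tested it. After median-of-ratios scaling 2 other cyclins were called higher and 1 lower, and 1 other CDK higher and 1 lower, beside 7.37% of all genes higher and 11.0% lower. Within set A 11 cyclins and 14 CDKs were lower, beside 57.3% of all genes. Among 9 activators, adaptors and inhibitory kinases, the CDK-binding proteins Cks1b (2.05, SE 0.39, adjusted p = 0.00201) and Cks2 (1.77, SE 0.55, adjusted p = 0.0386) rose and 0 fell, beside 2.51% of all genes higher and 14.3% lower. After scaling 7 of the 9 were called higher and 0 lower, beside 7.37% and 11.0% of all genes. The call of Cks2 was lost in 11 of 28 alternative settings, among them each fit without a WT ovary (adjusted p 0.0997 to 0.177) and those without MP tumor 1, 3, 6, 7 or 8 (adjusted p 0.0544 to 0.0591).

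Rb1, the target of the G1 kinases, fell, with means of 22.9 ± 2.32 (SD, n = 3) and 6.35 ± 4.18 TPM (SD, n = 10) and a log2 difference of -1.94 (SE 0.55, limma adjusted p = 0.0268). Its relative Rbl2 fell by 1.90 on the log2 scale (SE 0.61, adjusted p = 0.0457), and none of the other 11 RB and E2F genes passed in either direction. These 2 of 13 are near the 14.3% of all genes called lower. After median-of-ratios scaling 4 of the 13 were called higher and 2 lower, beside 7.37% of all genes higher and 11.0% lower. The call of Rbl2 was lost in 13 of 28 alternative settings, among them each fit without a WT ovary (adjusted p 0.139 to 0.163), those without MP tumor 1, 3, 6, 7 or 8 (adjusted p 0.0584 to 0.0654) and the exact permutation test (adjusted p = 0.0725). The number of RB and E2F genes called lower ran from 0, without any 1 WT ovary, to 6 within set A, where 57.3% of all genes were called lower. Among 17 parts of the ubiquitin ligases that destroy cyclins and their inhibitors, Cdc20, an activator of the anaphase-promoting complex (1.92, SE 0.46), and Skp2, which marks p27 for destruction (1.72, SE 0.49), rose, and Fbxo4 fell (-1.66, SE 0.51), beside 2.51% of all genes higher and 14.3% lower. After scaling 5 of the 17 were called higher and 0 lower, beside 7.37% of all genes higher and 11.0% lower. The call of Fbxo4 was thus lost, as it was in 13 of 28 alternative settings in all, among them each fit without a WT ovary and those without MP tumor 1, 6, 7 or 8. Calls of Rb1, Cdc20 and Skp2 were lost in 3, 3 and 5 of the 28 settings.

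Some genes of DNA replication and of mitosis rose, and most of both lists did not pass the test. Of 32 S-phase genes driven by E2F, 10 rose and 0 fell, with a median log2 difference of 1.21 and all 32 above 0, beside 2.51% of all genes higher and 14.3% lower. Gins2 and Tk1, parts of the replication machinery and of nucleotide supply, had log2 differences of 2.21 (SE 0.42, limma adjusted p = 0.00229) and 2.12 (SE 0.42, adjusted p = 0.00273). Of 32 genes of G2 and mitosis, 11 rose, among them the centromere histone Cenpa (2.49, SE 0.40, adjusted p = 0.000524), and Pttg1, the securin, fell (-2.01, SE 0.41). With median-of-ratios scaling 25 S-phase and 27 mitosis genes were called higher, beside 7.37% of all genes. Within set A 15 S-phase genes were higher and 1 lower, and 8 mitosis genes were higher and 3 lower, at medians of 1.00 and 0.39, beside 6.44% of all genes higher and 57.3% lower. Both counts depended on the WT ovaries: without WT ovary 1, 2 or 3 they were 5, 7 and 2 for S phase and 1, 5 and 1 for mitosis, and without MP tumor 2 they were 15 and 15. The whole table moved alike: 433 genes called higher became 135, 153 and 94 without WT ovary 1, 2 or 3, and 635 without MP tumor 2. Mitosis counts also dropped to 7 without MP tumor 1, 3, 6, 7 or 8, when 333 to 374 of all genes tested were called higher.

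**Figure D5:**
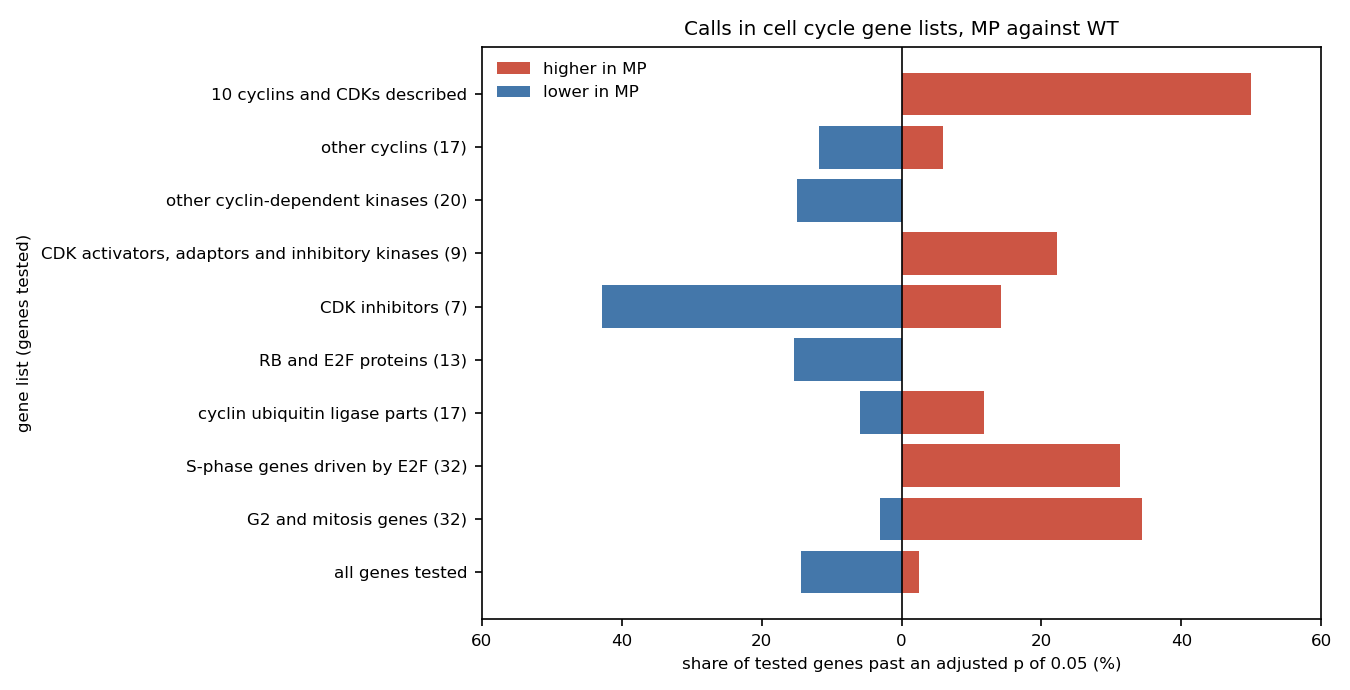
Share of tested genes (percent) past an adjusted p of 0.05 in each list, higher in MP tumors to the right and lower to the left, with the number of genes tested in parentheses. The 10 genes described reach 50% higher and 0% lower, against 2.51% and 14.3% of all genes tested.

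The proliferation marker Mki67, chosen after its values were seen, did not follow Cdk1. Means of 52.6 ± 20.1 (SD, n = 3, WT) and 92.3 ± 83.3 TPM (SD, n = 10, MP) gave a log2 difference of 0.30 (SE 0.76, limma adjusted p = 0.796). The ratio of Cdk1 to Mki67 TPM was 0.942 to 1.10 in WT ovaries, 4.20 to 15.2 in MP tumors of set A, 0.679 to 6.05 in those of set B and 0.640 to 3.05 in those of set C. All 3 tumors of set A lay above the WT range, and tumors of sets B and C lay on both sides of it. Mki67 is the longer gene: in WT ovary 1 it took 7635 reads to reach 51.1 TPM, against 3584 reads for 48.9 TPM of Cdk1. Log2 differences fell with gene length, above all within set A (Pearson r = -0.39 across genes). The part of gene length and of the set in these ratios was not tested.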

How the data were processed

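Bulk RNA-seq of 3 WT ovaries and 10 MP tumors was used. Libraries were polyA-selected (TruSeq) and read from 1 end at 76 bp. The authors deposited TPM values of 53465 mouse genes with gene coordinates and lengths. The labels name hg19, HTSeq and RPKM, whereas the submitters' processing notes list FastQC 0.11.5, Trimmomatic 0.36, STAR 2.5.3a, featureCounts 1.6.3 and mm10/GRCm38, and 96.2% of genes carry the start and end of GENCODE M21. Whether counting used strand is not given in the sources used here. Columns were matched to samples by library name, and 0 columns were left unused.

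TPM times length was a whole multiple of 1 step per library for 100% of values (relative tolerance 1e-06), which gave reads. A read in 1 kb was worth 0.0513 to 0.790 TPM. Pairs of libraries of a group differed by more than counting noise (chi-square per degree of freedom 28.4 to 657). The labels do not say that tumors came from separate animals, so p-values measure the spread between these samples.

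Log2(TPM + 1) was fitted with limma 3.58.1 (trend, robust) in R 4.3.3, 10 MP against 3 WT without covariate, in the 17277 genes that reached 1 TPM in 3 or more libraries, with Benjamini-Hochberg adjustment and a threshold of 0.05. A fold on this scale understates changes of low genes. Scripts were tested on simulated data. Named genes were all 10, Trp53 and Myc, from each pathway list the 2 smallest adjusted p per direction, from each marker list the 2 most abundant in WT ovaries, and the 3 genes most like each of the 10. The 10 genes and the lists were chosen with earlier results of these data known. Itgam occurs in 2 rows, of which the larger was used. Tables were read with pandas 2.3.3 and figures drawn with matplotlib 3.10.9 in Python 3.11.15.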

Additional observations from a re-analysis of the deposited data

Results flagged for a closer look

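In 53 measures checked across the 10 MP tumors, 7 values stood apart from the other tumors by Dixon's criterion at 95%, where chance flags about 2.65. Of the 10 genes described, only the pair of Cdk4 and Cdk6 was among them: in MP tumor 10 Cdk6 made up 24.1% and Cdk4 75.9% of their summed TPM, 2 readings of the same value. That library also stood apart for Trp53, at 187 TPM, while the next tumor was at 26.0 TPM. Ccnb2 was lowest in MP tumor 2, at 101 TPM against 195 TPM in the next, the tumor in which 10 genes take 55.1% of the total. The oocyte gene Padi6 was at 4.08 TPM in MP tumor 7 and Zp3 at 2.60 TPM in MP tumor 4. Acta2, an actin of smooth muscle, reached 1186 TPM in MP tumor 5 against 229 TPM in the next.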

How the results depend on the processing

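Against the 5 genes called higher and 0 lower, 3 were called higher without a filter on low values, 3 where a gene had to reach 1 TPM in 10 or more libraries and 2 by the exact permutation test. Leaving out each library in turn gave 0 to 5. Called lower were 3 in set A (57.3% of all genes), 2 with library set as a covariate and 4 with the replicate block. With the covariate and the block, 8534 and 9803 of the 17277 genes tested were lower, and both fits share the estimates of set A. Same-numbered WT ovaries and MP tumors are different animals, and their deviations were correlated at -0.10 to 0.00, so the numbers share only a name. Counts over all genes moved with scaling and set. Genes higher, 433, became 1274 with median-of-ratios scaling, 1904 with quantile normalization, 1789 with the length trend removed, 1112 in set A, 894 with set as a covariate, 1087 with the replicate block, 2729 by limma-voom on recovered reads, and 94 to 635 on leaving out libraries. Genes lower, 2463, became 900 with the stricter filter, 9902 in set A, 8534 with the covariate, 9803 with the replicate block, and 1158 to 3264 on leaving out libraries. Added after seeing the data were set A with median-of-ratios scaling (4681 higher, 5463 lower) and MP tumors 2 and 10 left out (675 higher). In the latter fit 5 of the 10 genes were called, with Cdk4 (0.98) in and Ccne2 (1.69, adjusted p = 0.053) out. The count differing between set A and the others within MP tumors, 5, became 3 with the length trend removed and 3 to 6 on leaving out a tumor.

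Signs turned for genes with no call. Ccnd1 became 0.54 (median-of-ratios), 0.80 (quantile), 0.65 (length trend removed), 0.50 (voom), 0.12 (without MP tumors 2 and 10), and -0.37 to 0.25 on leaving out libraries, above 0 without WT ovary 1, WT ovary 2, MP tumor 2 or MP tumor 3. Ccnd3 became 0.087, 0.27 and 0.47 with median-of-ratios, quantile and length settings. Cdk6 was -1.49 in set A, with the covariate and with the block, and -0.030 in set A with scaling. Mki67 was -1.06 in set A, with the covariate and with the block. The macrophage genes Lyz2 and Cd68, at -0.42 and -0.76, became 0.30 (scaling), 0.55 (set A, covariate, block), -0.77 to 0.095 on leaving out libraries, 0.30 (voom) and 2.21 (set A with scaling) for Lyz2, and 0.016 (voom) and 0.067 (set A with scaling) for Cd68. Mouse Myc, at -0.67, became 0.028 (scaling) and 0.048 (voom). The causes were not tested. Low levels are least certain in the shallower MP libraries.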

Other observations

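Markers of the other cell types that whole ovary or tumor tissue can hold varied among the libraries. Of all genes tested, 14.3% were called lower. Of 9 tested epithelial markers 4 fell, with Krt19 at a WT mean of 70.8 ± 4.03 TPM (SD, n = 3) and 0 to 205 TPM among MP tumors, and Krt8 at 63.7 ± 3.85 TPM (SD, n = 3) and 0.590 to 425 TPM (limma adjusted p = 0.122 and 0.371). Of 8 endothelial markers 4 fell, Eng among them (log2 difference -3.39, SE 0.84, adjusted p = 0.0129), and Cdh5 had a log2 difference of -2.81 (adjusted p = 0.066). Of 10 stromal and smooth muscle markers 6 fell, among them Acta2 (-3.23, SE 0.77, adjusted p = 0.0102), while Col3a1 was at -1.24 (adjusted p = 0.27). Of 11 tested immune markers 2 fell, near the share of all genes, and Lyz2 ranged from 383 to 3603 TPM in MP tumors. Hsd3b1 and Cyp11a1, steroid-forming enzymes of luteal and theca cells, fell, with log2 differences of -9.25 and -9.61, as did the oocyte genes Padi6 and Zp3 (-6.55 and -6.09).

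RNA of the mouse Myc gene was at 125 to 129 TPM in WT ovaries and 7.09 to 419 TPM in MP tumors, with a log2 difference of -0.67 (SE 1.02, limma adjusted p = 0.654). Whether reads of the MYC transposon were counted toward this gene is not given, so its level does not measure total MYC. The paper reports high MYC protein in tumors driven by MYC. The MP tumors of set A were at 24.7, 7.09 and 15.3 TPM, below every ovary. Within set A Myc was called lower (-3.09, adjusted p = 0.000641), as it was with the set as a covariate (adjusted p = 0.00065), with the replicate block (adjusted p = 0.000158) and within set A after median-of-ratios scaling (-1.50, adjusted p = 0.00181). All of these estimates come from the libraries of set A. Of all genes, 57.3% were called lower within set A, and 31.6% after scaling.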
